A study of Mus musculus with 8 samples.

Results

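DNA methylation was measured at and around 3 genes that encode catalytic DNA methyltransferases, Dnmt1, Dnmt3a and Dnmt3b, in liver DNA of C57BL/6J mice. The members were the HpaII sites listed in all 8 samples within the mm9 intervals chr9:20705000-20765000 for Dnmt1, chr12:3800000-3920000 for Dnmt3a and chr2:153470000-153520000 for Dnmt3b. They numbered 96, 157 and 62, or 315 of the 1310003 sites listed in all samples. All 8 samples came from C57BL/6J liver of mice on a high-fat diet, 4 with lingonberries added (the lingonberry group) and 4 with the high-fat diet alone (HFD). The labels give no age, sex or feeding time, and nothing in them says that each sample came from a separate animal, so the tests rest on the spread among the samples as labelled. The assay was HELP-tagging, in which HpaII cuts CCGG only when its central CpG is unmethylated, the cut ends are sequenced as short tags, and the tags are set against those of MspI, which cuts either form. Each site has an m-score from 0, where no HpaII tag was seen (methylated), to 100, where every tag was an HpaII tag (unmethylated). Libraries held 5877080 to 16076961 HpaII tags, the largest being lingonberry sample 1, and they shared a single MspI reference.

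DNA methyltransferases place a methyl group on the cytosine of CpG. Dnmt1 is the maintenance enzyme, which copies the methylation pattern of the parent strand onto the new strand after replication. Dnmt3a and Dnmt3b are de novo enzymes, which methylate CpGs that carry no mark on either strand. Dnmt3a has an internal promoter that gives a shorter protein, Dnmt3a2, and Dnmt3b is known mainly for its expression in early development. CpG-rich promoters are usually unmethylated, whereas CpGs in the bodies of genes are usually methylated. The m-score reads the methylation of the genes' own DNA and says nothing of the amount or activity of the enzymes.

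The promoters are shown because the spacing of their CCGG words was used to find each transcript start among the listed mm9 sites. The sequences are RefSeq's, from GRCm38.p6, printed 5′ to 3′ on the strand of the gene, with every CCGG in capitals. No coordinate was converted between builds, and a placed start may be off by up to 3 bases. For Dnmt1, on the minus strand of chromosome 9, only 30 bases around each of the 4 CCGG words are given, named by their mm9 distance from the start. For the other starts, on the plus strand, the 250 bases before the start are given, which lie in GRCm38.p6 at chr12:3806730-3806979 (the first Dnmt3a start), chr12:3891494-3891743 (the internal Dnmt3a start) and chr2:153649199-153649448 (Dnmt3b).
Dnmt1 site -208: gcgcgcgaaaaagCCGGggtctcgttcaga
Dnmt1 site -119: tgcgcttgcctccCCGGcaggctcgctccc
Dnmt1 site -104: ggcaggctcgctcCCGGaccatgtccgcag
Dnmt1 site -19: attgggggtatctCCGGgtggccctgcggc
Dnmt3a, first start: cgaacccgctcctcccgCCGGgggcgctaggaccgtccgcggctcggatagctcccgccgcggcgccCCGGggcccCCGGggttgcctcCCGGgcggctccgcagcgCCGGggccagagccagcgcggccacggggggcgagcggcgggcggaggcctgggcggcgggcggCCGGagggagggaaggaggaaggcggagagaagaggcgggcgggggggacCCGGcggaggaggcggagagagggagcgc
Dnmt3a, internal start: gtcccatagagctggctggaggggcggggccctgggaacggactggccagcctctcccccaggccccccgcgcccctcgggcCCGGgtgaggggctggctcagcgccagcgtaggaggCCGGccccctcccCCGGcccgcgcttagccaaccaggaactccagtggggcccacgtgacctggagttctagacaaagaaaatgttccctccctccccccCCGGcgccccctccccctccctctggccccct
Dnmt3b: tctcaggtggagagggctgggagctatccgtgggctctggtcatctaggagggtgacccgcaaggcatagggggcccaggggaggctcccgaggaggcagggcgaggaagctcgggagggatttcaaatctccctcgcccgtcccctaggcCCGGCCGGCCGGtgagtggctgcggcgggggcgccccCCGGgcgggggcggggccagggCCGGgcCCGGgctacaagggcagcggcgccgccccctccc

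All 4 Dnmt1 words, 6 of 8 in the 300-base window of the first Dnmt3a start, 4 of 4 at the internal Dnmt3a start and 5 of 7 at Dnmt3b matched listed sites, and the next best place in the genome matched 3, 4, 3 and 4. A further Dnmt3a start, 180 bases downstream of the first, matched at 6 of 6. The first and the internal Dnmt3a starts were 84764 bases apart both in RefSeq and on the listed sites. CCGG was found at least once in 52.8% of the 32851 RefSeq promoter windows of this length, and 13.3% held 4 or more (the word is its own reverse complement, so both strands are covered, and it cannot overlap itself). A match of spacing is a description of these letters. No mm9 annotation was used here, so sites are given by distance from the placed start and not as exonic, intronic or UTR.

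Each of the 4 starts lay in a block with a mean m-score above 50, lowest at Dnmt3b (63.3, with 9 of 20 sites at 75 or above). Outside these blocks 88.71% of Dnmt1 sites and 56.79% of Dnmt3a sites had a mean m-score below 25. Values are given for the 250 member sites with at least 10 MspI tags, 71 in Dnmt1, 125 in Dnmt3a and 54 in Dnmt3b. In Dnmt1, 77.46% of sites had a mean m-score below 25 and 9.859% were at 75 or above. In Dnmt3a the shares were 37.6% and 28.0%, and in Dnmt3b 48.15% and 16.67%. Over the genome 58.68% of sites were below 25 and 11.74% at 75 or above. Of all 315 members, 43 were without an HpaII tag in all 8 samples, 23 of them in Dnmt1.

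**Figure D1:**
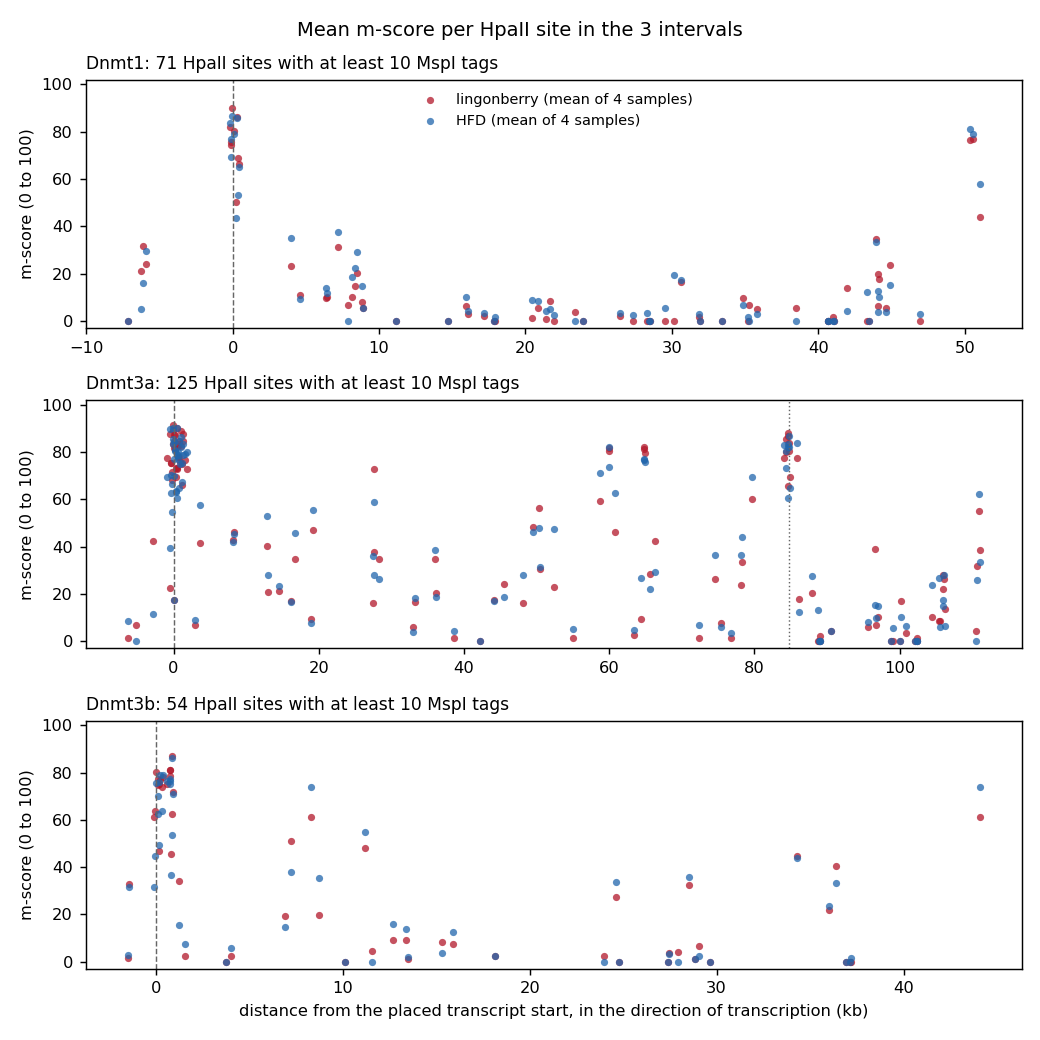
Mean m-score (0 to 100) of each HpaII site with at least 10 MspI tags, by distance in kb from the placed start, for the 4 lingonberry samples (red) and the 4 HFD samples (blue); the dashed line is the first start and the dotted line the internal Dnmt3a start. Sites are mostly high at the Dnmt1 and Dnmt3a starts and mixed at the Dnmt3b start. They are low through most of Dnmt1 and spread over the scale elsewhere in the Dnmt3a interval.

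The mean m-score of Dnmt1 was 19.0, 18.5, 17.6 and 18.2 in lingonberry samples 1 to 4 and 18.4, 17.6, 18.9 and 19.5 in HFD samples 1 to 4. That of Dnmt3b was 32.8, 33.4, 36.1 and 34.7 with lingonberries and 33.8, 33.1, 33.7 and 30.2 in HFD. That of Dnmt3a was 42.3, 44.7, 42.1 and 44.9 with lingonberries and 44.6, 42.3, 42.1 and 44.3 in HFD. The order Dnmt1, Dnmt3b, Dnmt3a from methylated to unmethylated held in each of the 8 samples, with no overlap between neighbours (17.6 to 19.5, 30.2 to 36.1 and 42.1 to 44.9), while the diets overlapped in every gene. Of 29852 genomic tiles of 50 kb, 31.59% had a lower mean than Dnmt1, 70.7% a lower mean than Dnmt3b and 85.37% a lower mean than Dnmt3a.

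The diets could not be told apart over any of the 3 intervals. The lingonberry minus HFD difference in mean m-score was -0.30 ± 0.498 (SE) for Dnmt1, with a two-sided exact permutation p of 0.629. It was 0.19 ± 0.993 for Dnmt3a (exact permutation p = 0.543) and 1.56 ± 1.12 for Dnmt3b (exact permutation p = 0.257), the last being 0.73 without HFD sample 4 and 3.88 with a minimum of 50 MspI tags (exact permutation p = 0.114). With 4 samples against 4 the smallest p this test can give is 0.0286. Fitted with limma over all tiles and the 3 intervals, the adjusted p was 0.946, 0.959 and 0.628; of all these regions 0.0% were called in either direction and 13.3% had an unadjusted p below 0.05. Over the tiles the median difference was -1.38, and 22.3% of tiles and intervals were above 0. At the 16 Dnmt3a sites with at least 50 MspI tags the difference was 3.01, with an exact permutation p of 0.0286, whereas at all 157 listed Dnmt3a sites it was -0.67 (exact permutation p = 0.514). HpaII tags per 1000000 of the library, which do not use the MspI reference, were 40.6 ± 6.94 and 37.6 ± 1.83 in Dnmt1 (SD, lingonberry and HFD, each n = 4), 218.3 ± 17.2 and 199.1 ± 23.1 in Dnmt3a, and 72.4 ± 5.07 and 64.6 ± 4.53 in Dnmt3b. The log2 differences were 0.096, 0.14 and 0.16, with exact permutation p of 0.571, 0.257 and 0.0857. Scaled to the tags at sites of the same density they were 0.051, 0.055 and 0.078 (exact permutation p = 0.8, 0.514 and 0.314).

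Single sites gave no call. Of the 250 sites none had a limma adjusted p below 0.05, the smallest being 0.413, beside 0.00945% of all sites with at least 10 MspI tags. Over all listed sites 0.00947% were called lower and 0.00397% higher with lingonberries, a balance that turned to 524 higher and 175 lower without lingonberry sample 3. At an unadjusted p below 0.05 there were 11 of 250 (4.4%), beside 4.76% of all sites with at least 10 MspI tags. These were 1 of 71 in Dnmt1, 6 of 125 in Dnmt3a and 4 of 54 in Dnmt3b, 8 of them higher with lingonberries and 3 lower. All lingonberry samples lay above all HFD samples at 5 sites (2.0%; 0.817% of all such sites), of which 3 were in the Dnmt3b start block, and below them at 2 sites (0.8%; 1.57% of all such sites), both in Dnmt3a. All 5 of the former had at least 5 listed neighbours within 500 bp. They were 1 of 13 such sites in Dnmt1, 1 of 41 in Dnmt3a and 3 of 19 in Dnmt3b, beside 3128 of 128163 over the genome. The spread between samples differed with depth and level: the median SD within a diet was 6.44 at the 79 sites with a mean of at least 10 HpaII tags (median m-score 77.8) and 14.3 at the 80 sites with a mean of 1 to 10 (median m-score 26.8). The 91 sites with a mean below 1 tag had a median SD of 4.93, at a median m-score of 2.26.

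For Dnmt1, the maintenance enzyme, the unmethylated sites formed a block of 9 sites from -208 to +415 relative to the start (mm9 chr9:20756651-20757274). Such blocks, called clusters here, are runs of 5 or more sites in which neighbours lie no more than 500 bp apart. The cluster mean was 79.9, 73.5, 70.05 and 76.3 in the lingonberry samples and 73.9, 68.0, 69.0 and 74.8 in the HFD samples, so the groups overlapped. The difference was 3.49 ± 2.32 (SE), with a limma adjusted p of 0.684 over all 21020 clusters of the genome, and it was 1.83 without lingonberry sample 1. Of those clusters 0.0% were called in either direction, 8.22% had an unadjusted p below 0.05, the median m-score was 68.8, the median difference was 1.02 and 65.9% of differences were above 0.

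The 4 promoter sites of Dnmt1 printed above had mean m-scores of 82.8 at -208, 76.3 at -119, 71.9 at -104 and 88.3 at -19. Their mean was 83.7, 81.7, 73.8 and 82.8 with lingonberries and 79.5, 79.7, 78.5 and 78.8 in HFD, and 78.91% of the 2996 promoters placed in the same way had a lower mean. The site with most HpaII tags in Dnmt1, at 20756778 (+288), was even between samples, at 88.5, 87.4, 85.0 and 84.5 with lingonberries and 84.8, 85.4, 86.4 and 86.4 in HFD. The block was not uniform: the site at 20756826 (+240), with 95 MspI tags, had a mean of 47.0. At 20756733 (+333) the lingonberry samples read 78.4, 63.0, 62.4 and 71.5 and the HFD samples 62.0, 32.4, 59.3 and 58.5, every lingonberry value being above every HFD value. That difference was 15.8 ± 7.42 (SE), with a limma adjusted p of 0.873, and it was 8.88 without HFD sample 2.

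Beyond its start Dnmt1 was methylated almost throughout. The 62 sites outside the start cluster averaged 10.1 ± 0.349 with lingonberries and 10.9 ± 0.700 in HFD (SD, n = 4 each), and 55 of them were below 25. The diets overlapped at these 62 sites (exact permutation p = 0.114). Sparse sites of the genome had a lower mean with lingonberries. Those without a listed neighbour within 500 bp averaged 17.5 with lingonberries and 20.3 in HFD, and those with 1 to 4 neighbours 25.0 and 26.2. A cluster of 6 sites 7864 to 8881 bases downstream of the start (chr9:20748185-20749202) read 11.2, 12.9, 6.32 and 13.1 with lingonberries and 16.1, 14.2, 14.2 and 16.03 in HFD. The lingonberry values were all lower there, as in 0.961% of clusters, but on 2 to 16 tags per sample, with a difference of -4.28 ± 2.13 (SE) and a limma adjusted p of 0.612. A cluster of 8 sites at 43306 to 44934 bases was also methylated, at 13.4 ± 2.47 and 11.3 ± 3.34 (SD). Near it, the sites at 20715986, 20716389 and 20716420 had 38, 28 and 21 MspI tags and not a single HpaII tag. A site at 20726892 (+30174) had no tag with lingonberries and 1, 2, 1 and 0 tags in HFD. The 2 sites at 75 or above outside the start cluster stood at the far end of the interval, 50395 and 50590 bases downstream of the start, where the sites at 20706671 and 20706476 had means of 78.9 and 78.0, and 20706026 had a mean of 50.9.

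Dnmt3a, a de novo enzyme, held the most unmethylated DNA of the 3 genes. Around its first start 35 sites from -919 to +1822 formed the longest member cluster (chr12:3806063-3808804), with 22 sites at 75 or above. Its mean was 76.3, 79.3, 73.8 and 76.8 with lingonberries and 76.9, 73.2, 69.3 and 74.5 in HFD. Of its 35 sites 28 were higher with lingonberries, beside 84622 of the 128163 genomic sites with at least 5 listed neighbours within 500 bp. The groups overlapped, and the difference of 3.05 ± 1.88 (SE) had a limma adjusted p of 0.662. It was 5.40 where sites needed at least 50 MspI tags and 1.66 without HFD sample 3, neither of them called. Over the 5 promoter sites of the first start the mean was 83.5 ± 1.88 with lingonberries and 78.2 ± 5.58 in HFD (SD, n = 4 each). Their difference was 5.29 (limma adjusted p = 0.4996 over all placed promoters), or 2.94 without HFD sample 4. Over the 6 sites of the neighbouring second start it was 3.99 (adjusted p = 0.573).

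The site with most tags of all members, 3806953 (-29), read 89.9, 94.5, 90.4 and 90.8 with lingonberries and 93.1, 86.3, 89.1 and 93.0 in HFD, on 37 to 142 HpaII tags. The sites at 3807560 (+578) and 3807246 (+264) followed in tags, with means of 81.8 and 83.9. These deep sites were above 75 in every sample, except 3807246 in HFD sample 3 (66.0), and their diets overlapped. The smallest unadjusted limma p in Dnmt3a, 0.0207, was at 3806638 (-344), where the lingonberry samples read 75.2, 83.0, 68.9 and 74.9 and the HFD samples 68.5, 61.4, 67.4 and 53.7. All 4 lingonberry values were higher there, by 12.7 ± 4.26 (SE) on average, with an adjusted p of 0.873. Between high neighbours, the site at 3806534 (-448) had a mean of 31.1 on 28 MspI tags and the site at 3807094 (+112) one of 17.2 on 10.

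The internal start, that of the shorter Dnmt3a2, also had a mean m-score above 50 in all samples. Its cluster of 9 sites (chr12:3891050-3891967) read 79.2, 79.5, 79.3 and 80.8 with lingonberries and 80.5, 79.7, 70.3 and 79.4 in HFD. The 4 lingonberry samples lay within 2 m-score units of each other, and HFD sample 3 alone was lower. The difference was 2.22 ± 2.05 (SE; limma adjusted p = 0.769) and -0.18 without HFD sample 3. The 4 sites of the printed sequence gave 85.0, 77.1, 81.5 and 80.7 with lingonberries and 84.3, 82.7, 62.4 and 84.0 in HFD, with a difference of 2.72 that became -2.59 without HFD sample 3. The level at the internal promoter, 79.7, and that at the first promoter, 80.8, differed by less than the spread between samples.

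Between and beyond the starts, Dnmt3a had 81 sites outside the unmethylated clusters, with a mean of 25.2 ± 1.61 with lingonberries and 26.5 ± 1.20 in HFD (SD, n = 4 each). That was above the 10.5 and 15.9 of the same kind of sites in Dnmt1 and Dnmt3b, with no overlap of samples among the 3 genes. The genome lay nearer to Dnmt3a. All sites with 1 to 4 listed neighbours within 500 bp averaged 29.4 in Dnmt3a, 11.3 in Dnmt1, 17.4 in Dnmt3b and 25.6 over the genome. For sites without such a neighbour the means were 22.8, 7.20, 9.55 and 18.9. Small unmethylated groups contributed to the Dnmt3a mean outside the clusters. The sites at 3866958 and 3867011, 59976 and 60029 bases downstream of the first start, had means of 77.2 and 82.0. Those at 3871757, 3871816 and 3871919, 64775 to 64937 bases downstream, had means of 79.2, 79.7 and 77.8. These 5 sites, chosen after their values were seen, fell short of the 5 neighbouring sites that a cluster needs. The third Dnmt3a cluster, 6 sites at 105484 to 106286 bases (chr12:3912466-3913268), was methylated, with means of 17.9 ± 3.41 and 16.6 ± 4.11 (SD).

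The 2 Dnmt3a sites where all lingonberry values were lower held few tags. At 3912466 (+105484) the lingonberry samples read 7.32, 5.91, 9.61 and 11.5 and the HFD samples 31.0, 33.0, 28.3 and 15.6, on 1 to 4 tags each. The groups did not overlap, with a difference of -18.4 ± 6.73 (SE) and a limma adjusted p of 0.873. At 3911509, the other non-overlapping site, named after its values were seen, the lingonberry samples had 2 to 5 tags and the HFD samples 4 to 7. At 3895814 (+88832) the lingonberry samples had no tag, and the HFD samples had 2, 0, 1 and 2.

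**Figure D2:**
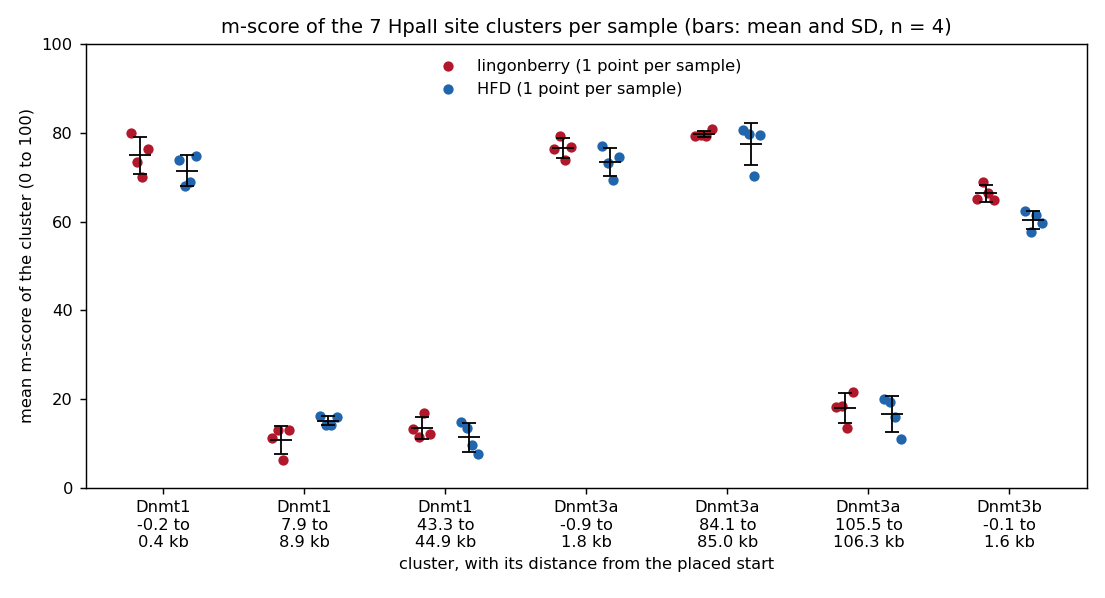
Mean m-score (0 to 100) of the 7 clusters in the 3 intervals, 1 point per sample, with the mean and SD of each diet (n = 4). The 4 clusters at starts lie between 57.7 and 80.8 and the other 3 below 22; the diets are apart without overlap in the Dnmt3b start cluster and in the Dnmt1 cluster 7.9 to 8.9 kb downstream.

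At Dnmt3b, also a de novo enzyme, the start block had a lower m-score than the other 3 start clusters in each of the 8 samples. Its cluster of 20 sites, from -91 to +1561 (chr2:153475096-153476748), read 65.1, 68.9, 66.5 and 64.8 with lingonberries and 62.4, 57.7, 61.5 and 59.8 in HFD. All 4 lingonberry samples were above all 4 HFD samples, which was so in 3.89% of all clusters. The difference was 6.02 ± 2.15 (SE), with an unadjusted limma p of 0.0151 and an adjusted p of 0.602, so it was not called. The number of sites higher with lingonberries was 14 of 20, beside 84622 of the 128163 genomic sites with at least 5 listed neighbours within 500 bp. The difference was 5.14 to 6.71 when any 1 sample was left out. All 20 sites gave an exact permutation p of 0.0286, the value that any full separation of the groups gives. Without the 3 sites with the smallest p the difference was 3.53, and the groups then overlapped (exact permutation p = 0.0857). Over the 16 sites with a mean of at least 10 HpaII tags it was 3.65, with the same exact permutation p and again an overlap, the lowest lingonberry value being 69.5 and the highest HFD value 71.3. HpaII tags per 1000000 over the cluster were 65.5 ± 5.78 and 56.9 ± 4.92 (SD, n = 4 each). The diets overlapped in these tags, with a log2 difference of 0.204 (exact permutation p = 0.0571). Over all genomic sites with at least 5 listed neighbours within 500 bp it was 0.139 (exact permutation p = 0.0286). The m-score of such sites also differed in the same direction over the genome, at 70.1 ± 0.923 with lingonberries and 68.1 ± 1.19 in HFD. Those of Dnmt3b were at 69.7 ± 2.11 and 63.1 ± 2.38.

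**Figure D3:**
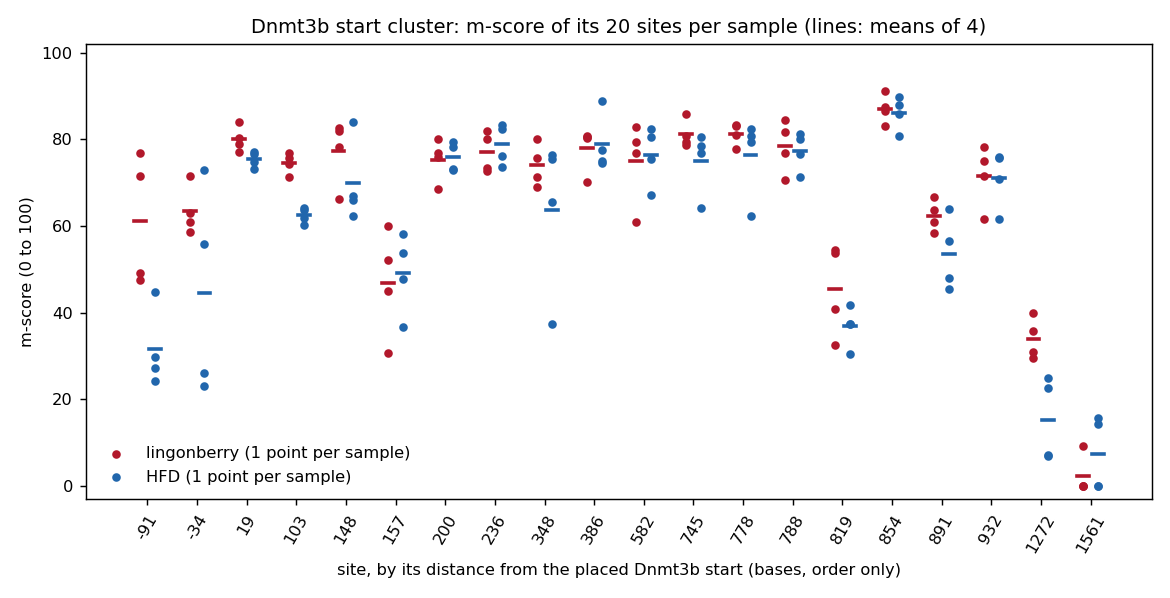
m-score (0 to 100) of the 20 sites of the Dnmt3b start cluster, 1 point per sample, lines giving the means of the 4 lingonberry (red) and 4 HFD (blue) samples; the horizontal axis gives the sites in order of their distance in bases from the start. The diets are apart at -91, 103 and 1272, and overlap at most of the deep sites near 80.

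The sites with the smallest p lay at the edges and close to the start. At 153475290 (+103) the lingonberry samples read 75.7, 76.9, 71.2 and 74.4 and the HFD samples 61.9, 64.1, 63.7 and 60.2. The groups stood clear of each other, with a difference of 12.1 ± 1.71 (SE). In the fit over all listed sites it had the smallest limma p of the members (0.000206) and an adjusted p of 0.413. Fitted only over sites with at least 10 MspI tags and 1 HpaII tag, its limma p was 0.0187 (adjusted p 0.897). That was above the 0.0104 of the site at 153475096 in the same limma fit. The HpaII tags at 153475290 were 35, 23, 11 and 21 with lingonberries and 9, 9, 8 and 9 in HFD. These counts are not scaled to library size. Scaled to it, the log2 difference in tags at this site was 0.513 (lingonberry minus HFD). The limma p was 0.0777 and the adjusted p 0.858, in a fit over sites with a mean of at least 10 HpaII tags. At 153476459 (+1272), where the block ends, the values were 29.5, 39.9, 30.9 and 35.8 with lingonberries and 7.25, 22.6, 24.9 and 6.87 in HFD. At 153475096 (-91), on 10 MspI tags, they were 47.5, 71.5, 49.2 and 76.8 with lingonberries and 44.7, 27.3, 29.9 and 24.3 in HFD. Neither of these passed the adjusted test (0.873 for both).

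The 3 Dnmt3b sites with most tags gave smaller differences, in both directions. At 153476041 (+854), with most tags, the means were 87.0 ± 3.39 and 86.0 ± 3.90 (SD, lingonberry and HFD). At 153475387 (+200) they were 75.3 ± 4.87 and 76.0 ± 3.33, and at 153475932 (+745) 81.1 ± 3.21 and 75.02 ± 7.45. The diets overlapped at all 3. The site at 153476006 (+819) had a mean of 41.1 on 114 MspI tags, 35 bases from the deepest site of the gene.

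The promoter of Dnmt3b, the 3 matched sites around its start with at least 10 MspI tags (-91, -34 and +19), read 61.1, 70.9, 68.2 and 72.9 with lingonberries and 64.2, 42.1, 54.2 and 41.6 in HFD. HFD sample 1 overlapped the lingonberry samples. The mean of 59.4 was low among the placed promoters, of which only 2.37% were lower and whose median was 75.7. That level depended on the sites kept. With the 4 matched sites of at least 1 MspI tag the means were 73.0 with lingonberries and 59.8 in HFD. With all 5, which adds a site without an MspI tag, they were 78.4 and 67.8. The difference of 17.8 ± 4.91 (SE) ranked 1 of 2996 by size among lingonberry increases, yet its limma adjusted p was 0.4996, and 0.0% of placed promoters were called while 9.78% had an unadjusted p below 0.05. The median difference of all placed promoters was 2.34, and 81.3% were above 0. With a minimum of 1 MspI tag, which adds the site at -99, the difference was 13.3 and ranked 7 of 3140. Without the site at -91, which had 1 or 2 HpaII tags in each HFD sample, it was 11.8. With 1 sample left out it was 14.8 to 22.3 and ranked between 1 and 6, ranking 2 without lingonberry samples 2 or 4, 4 without HFD sample 2 and 6 without HFD sample 4.

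The contrast in tags at this promoter depended on the sites counted. Over the 3 sites they were 5.79 ± 0.871 per 1000000 with lingonberries and 4.17 ± 0.689 in HFD (SD, n = 4 each). Over all 5 matched sites they were 9.33 ± 2.16 and 9.33 ± 2.33. The site at 153475125 (-62) accounted for that: it has no MspI tag and an m-score of 100 in every sample, with 33.3, 8.94, 29.2 and 29.1 tags with lingonberries and 36.0, 13.7, 35.5 and 28.1 in HFD, fractions read here as tags shared with another place in the genome. The sequence printed above holds 3 CCGG words in direct succession at this promoter.

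**Figure D4:**
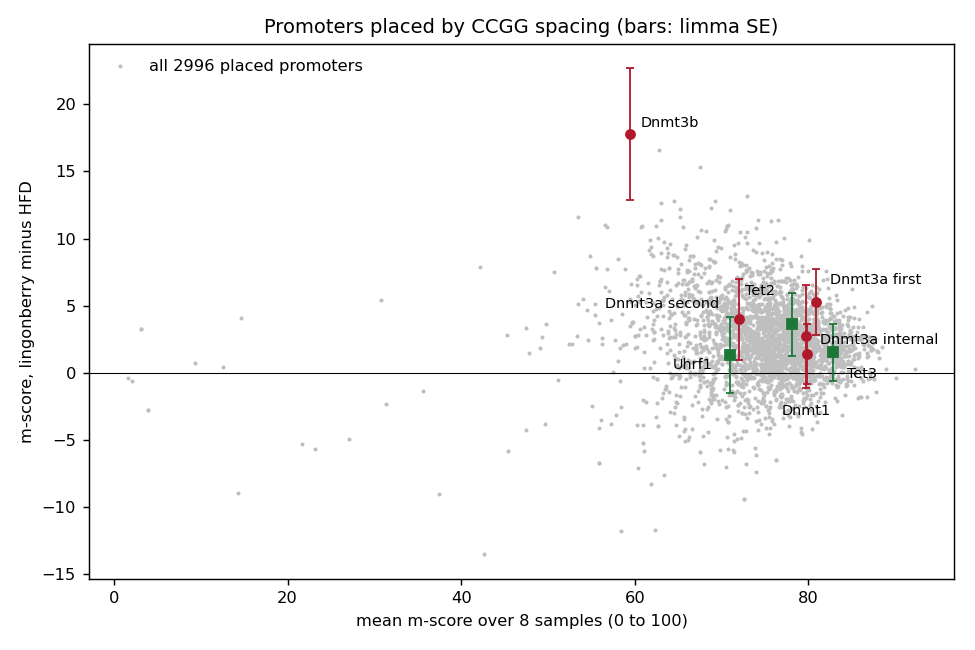
Lingonberry minus HFD difference in m-score against the mean m-score over 8 samples for 2996 promoters placed by their CCGG words (grey), with the Dnmt promoters (red circles) and the placed partner genes (green squares); bars are limma SE. Dnmt3b is the highest point, at 17.8, and the other marked promoters lie between 1.3 and 5.3.

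Away from its start Dnmt3b was mostly methylated, with 34 sites at 15.4 ± 2.66 with lingonberries and 16.5 ± 2.54 in HFD (SD, n = 4 each). Of these 24 were below 25 and none reached 75. The highest values outside the block, at 153483500 and 153519263, were the same in all 8 samples (44.3 to 84.1) with shared tags, so these 2 sites are 1 measurement. Shared tags occurred at 10 of the 62 Dnmt3b sites, 4 of the 157 Dnmt3a sites and 3 of the 96 Dnmt1 sites.

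Of 12 other genes of the methylation pathway (Uhrf1, Dnmt3l, Tet1, Tet2, Tet3, Tdg, Mat1a, Mat2a, Ahcy, Gnmt, Bhmt and Mbd2), the promoters of 3 could be placed, and none passed the test in either direction. Uhrf1, which brings Dnmt1 to newly replicated DNA, had a promoter mean of 71.7 ± 1.80 with lingonberries and 70.3 ± 3.54 in HFD (SD, n = 4 each). Tet2 and Tet3, which oxidise methylcytosine on the way to its removal, had 79.9 ± 2.39 and 76.3 ± 3.57, and 83.6 ± 4.34 and 82.1 ± 2.07. Their limma adjusted p over all placed promoters was 0.86, 0.53 and 0.769. All 3 overlapped between diets. Over the 8 samples Tet2 and Tet3 averaged 78.1 and 82.8, above 75 like the Dnmt1 promoter and the first and internal Dnmt3a promoters. Uhrf1 averaged 71.0, near the 72.0 of the second Dnmt3a start. The liver label was not checked against marker genes, since none of their promoters could be placed.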

How the data were processed

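Per the labels' protocols, frozen liver DNA was cut with HpaII and made into tags by ligation of adapters, EcoP15I digestion and transcription in vitro before PCR. No molecular identifiers are named, so depth covers counting error only. Per the file headers, each deposited table gives an m-score (a score from 0 to 100) and conf (treated as a signal). From the values, the m-score is the angle between MspI and HpaII tags (0.9 degrees per unit) and conf the vector's length. The submitters' processing notes name CASAVA and mm9; the sources used here do not give the aligner, the filters or the origin of the MspI reference. The reference carries, in each sample, the total of its HpaII tags, so an m-score is relative to the sample's other sites.

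HpaII tags were computed as the sine component and were whole, within 0.02, at 96.1% to 97.0% of sites. Tests used limma 3.58.1 (trend, Benjamini-Hochberg, threshold 0.05) over all sites, clusters and 50 kb tiles with at least 10 sites, in R 4.3.3, and two-sided exact permutation of the 70 assignments. The cluster fit was checked on simulated data, with a spread between samples that was set and not estimated from these data. It missed most 2-fold changes in tags there, a share that depends on that setting. A cluster that is not called may still differ. Promoters with at least 4 CCGG words and at most 2 unmatched were placed where the spacing matched at 1 best place, and valued over at least 3 sites: 3185 were placed, 98.59% on their own chromosome. That promoter analysis was added after seeing the data. Sites named are the 3 with most tags and the 3 with the smallest p per gene, every site called and every cluster; all other sites named were chosen after their values were seen. The members and lists were chosen with earlier results of these data known. Alternatives were other MspI minimums, log2 tags per 1000000 (plus 0.5), site density and leaving out each sample.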

Additional observations from a re-analysis of the deposited data

Results flagged for a closer look

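In 5 of 78 groups of 4 samples, 1 sample stood apart by Dixon's criterion; chance gives about 3.9 of 78. HFD sample 3 was low at the internal Dnmt3a start, with 70.3 against a nearest value of 79.4 for the cluster and 62.4 against 82.7 for the promoter sites. These share sites, so they are not separate events. HFD sample 1 was high at the second Dnmt3a start, with 77.0 against 68.2. HFD sample 2 was low at the Dnmt1 site 20756733, with 32.4 against 58.5. Lingonberry sample 2 was low at the Tet3 promoter, with 77.1 against 85.3.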

How the results depend on the processing

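No paired analysis was possible because the labels number the samples in 1 series and tie no lingonberry sample to an HFD sample by litter, batch or day; the replicate numbers used here are names only. The interval means of Dnmt1 and Dnmt3a changed direction: for Dnmt1 (-0.30) to 6.92 with a minimum of 50 MspI tags, which leaves 1 site, and to 0.63 relative to genomic sites of the same density. For Dnmt3a (0.19) the difference became -0.67 with a minimum of 1 MspI tag and 3.01 with 50 (16 sites, exact permutation p = 0.0286, the smallest possible). Leaving out 1 sample gave -0.27 to 0.64 for Dnmt3a, below 0 without lingonberry samples 2 (-0.22) or 4 (-0.27) or HFD samples 2 (-0.16) or 3 (-0.22). The Dnmt1 log2 tag difference ran from -0.0099, without lingonberry sample 1, to 0.17. Over all sites of the genome 176 were called, against 0 with at least 10 MspI tags and 1 HpaII tag (39211 unadjusted), 1 on log2 tags, and 216 to 699 with 1 sample left out. No cluster, tile or promoter was called by limma in any setting run, at unadjusted shares of 8.22%, 13.3% and 9.78% in the reported fits.

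Changes of direction among features that were never called were these. The Dnmt1 start cluster was at -0.060 with a minimum of 1 MspI tag. With 1 sample left out, the Dnmt3a internal cluster ran from -0.18 to 3.24, its promoter from -2.59 to 4.70 and the Dnmt3a cluster 105484 bases downstream from -0.53 (without HFD sample 4) to 2.82. The sites did so from -0.34 to 1.92 (3806953), -2.19 to 1.64 (153475387), -0.76 to 2.37 (153476041), -0.14 to 1.21 (20756778) and -4.92 to 4.16 (20757274, also 0.023 on log2 tags). The cause was not tested. The Dnmt3b start cluster was higher with lingonberries in every setting that gave a value. At the 80 member sites with a mean of 1 to 10 tags the median SD of 14.3 sets the size of difference that could be seen.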
